A study of Mus musculus with 2 samples.

Results

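The genes described here encode the kinases and the phosphatase subunits that set the phosphorylation of eIF2, and the question was which of them carried an ATF4 peak in primary mouse neurons. They are 6 of the 21887 protein-coding genes in the RefSeq annotation of GRCm38.p6: 4 kinases (Eif2ak1, Eif2ak2, Eif2ak3 and Eif2ak4) and 2 regulatory subunits of the eIF2 phosphatase (Ppp1r15a and Ppp1r15b). The members were named by gene symbol, and all called peaks overlapping a gene or lying up to 10 kb from it were collected. The assay was CUT&Tag, in which an antibody against a protein directs the pA-Tn5 transposase to cut and tag the DNA around it in permeabilized cells. The series has 1 ATF4 library and 1 IgG library, and each used some 100000 neurons cultured from the cortex and hippocampus of embryonic C57BL/6 mice, without replicates. Neither the labels nor the methods state whether these neurons had received hemin, the stressor used elsewhere in the study. Peaks of the ATF4 library only were used here, so the values below compare positions within 1 library and have no replicate error. A peak list holds no expression values, and the cell type was not checked by markers here.

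The ATF4 library held 7873 called peaks. The authors gave each peak an enrichment, as a fold over the local background, and a p-value and q-value on the -log10 scale. The number of fragments stacked at the summit was recovered from the fold enrichment and the p-value with the formulas of MACS2, and a whole number was found for all 7873 peaks. The median peak had 4 fragments and a fold enrichment of 4.33, and no called peak had fewer than 3 fragments. Each number of fragments is followed in parentheses by its exact Poisson 95% interval, which covers counting error only because PCR can copy a fragment.

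Phosphorylation of the alpha subunit of eIF2 lowers protein synthesis in general and raises translation of the mRNA of ATF4, a bZIP transcription factor of the integrated stress response. The kinases answer to different stresses: Eif2ak1 (HRI) to heme deficiency and mitochondrial stress, Eif2ak2 (PKR) to double-stranded RNA, Eif2ak3 (PERK) to unfolded protein in the endoplasmic reticulum, and Eif2ak4 (GCN2) to amino acid shortage. Ppp1r15a (GADD34) and Ppp1r15b (CReP) each bring protein phosphatase 1 (PP1) to eIF2 and reverse the phosphorylation. GADD34 is known as the stress-induced subunit and a feedback target of ATF4, and CReP as the constitutive subunit.

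RefSeq promoter windows of GRCm38.p6, running from 250 bases before to 50 bases after a start site, were matched by symbol for 5 of the 6 genes: Ppp1r15a and the 4 kinases. Ppp1r15b was not matched. The windows of Ppp1r15a, Eif2ak1 and Eif2ak3 are shown as examples: Ppp1r15a holds TGACGTCA, Eif2ak1 holds TGATG, and Eif2ak3, which encodes PERK, the kinase the study addresses, holds neither. An Eif2ak4 window, not shown, also holds TGATG. They are written 5′ to 3′ along the strand of the gene, with matches of TGATG and TGACGTCA in capitals. The Ppp1r15a window lies at chr7:45526219-45526518 on the minus strand, Eif2ak1 at chr5:143817542-143817841 and Eif2ak3 at chr6:70844265-70844564, both on the plus strand.
Ppp1r15a: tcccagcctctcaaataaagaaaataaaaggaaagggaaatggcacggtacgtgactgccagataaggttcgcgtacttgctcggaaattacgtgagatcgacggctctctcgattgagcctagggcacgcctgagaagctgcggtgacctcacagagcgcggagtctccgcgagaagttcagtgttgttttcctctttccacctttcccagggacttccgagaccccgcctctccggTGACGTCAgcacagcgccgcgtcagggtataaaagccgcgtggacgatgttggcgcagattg
Eif2ak1: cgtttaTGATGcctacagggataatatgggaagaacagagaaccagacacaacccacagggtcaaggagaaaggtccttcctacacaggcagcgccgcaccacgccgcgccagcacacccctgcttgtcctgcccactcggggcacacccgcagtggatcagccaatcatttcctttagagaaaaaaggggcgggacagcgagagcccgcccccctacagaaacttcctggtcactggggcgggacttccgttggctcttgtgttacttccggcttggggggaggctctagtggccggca
Eif2ak3: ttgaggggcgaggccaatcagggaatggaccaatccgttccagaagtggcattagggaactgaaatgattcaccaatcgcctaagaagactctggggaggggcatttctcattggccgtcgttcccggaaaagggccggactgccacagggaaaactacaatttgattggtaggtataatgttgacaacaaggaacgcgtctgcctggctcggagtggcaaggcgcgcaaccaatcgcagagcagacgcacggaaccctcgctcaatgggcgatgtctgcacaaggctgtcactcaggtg

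Of the 6 genes, 1 had a called ATF4 peak within this window. That gene was Ppp1r15b, with 1 peak. Across all protein-coding genes, 24.8% had a peak in the same window. Among the phosphatase subunits the count was 1 of 2, and 19.3% of the 3552 protein-coding genes whose lengths lie between those of Ppp1r15a and Ppp1r15b had a peak. Among the kinases it was 0 of 4, and 29.3% of the 4242 genes whose lengths lie between those of the shortest and the longest kinase gene had a peak. With 4 and 2 genes in 1 library no test of the difference between kinases and phosphatase subunits was made, and so few genes cannot be set apart from the share of all genes. Near gene ends the count was also 1 of 6, with the summit within 1 kb of an end, and 8.13% of all protein-coding genes had such a peak. Restricting the list to a -log10 q of at least 5 left the same 1 gene, against 6.25% of all protein-coding genes with such a peak within 10 kb.

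**Figure D1:**
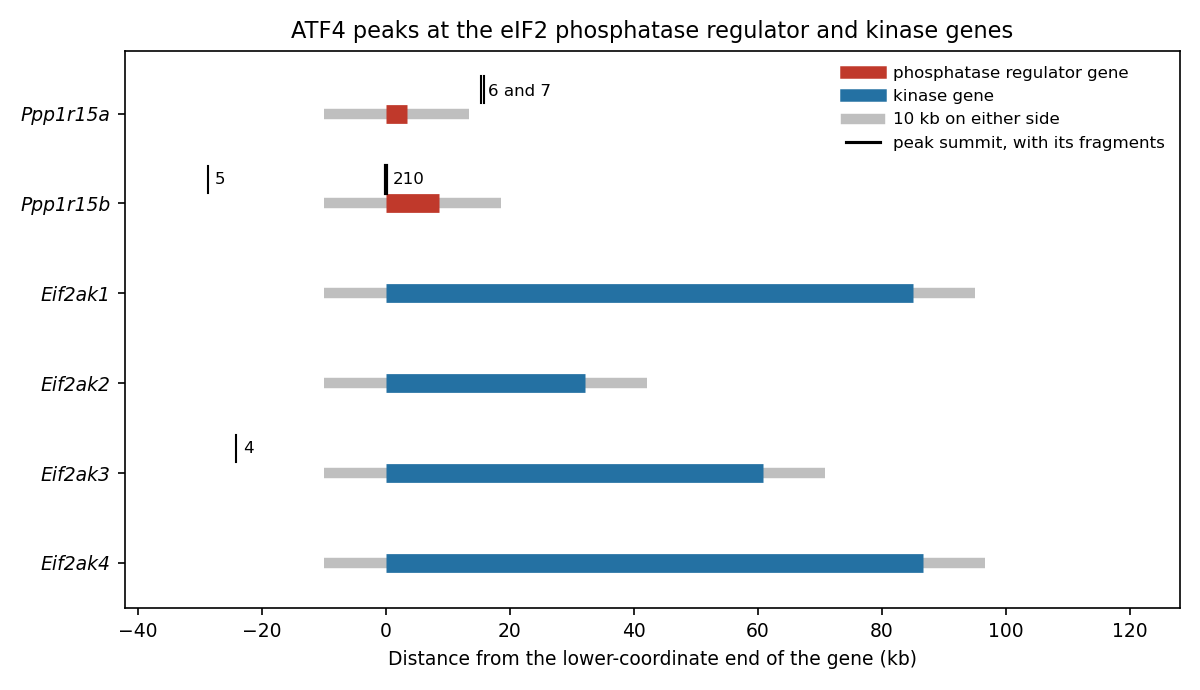
Position of called ATF4 peaks at the 6 genes. Each row is a gene, drawn as a coloured bar from its lower-coordinate end (0 kb) with grey bars for 10 kb on either side; the black ticks are peak summits within 40 kb and the numbers beside them are recovered fragments. The peak of 210 fragments at the end of Ppp1r15b is the only one inside any of the 6 windows.

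The peak of Ppp1r15b spanned chr1:133130762-133131718. The gene lies at chr1:133131166-133139800, so 404 bases of the peak were outside the gene and 553 inside it. Its summit was 32 bp outside the lower-coordinate end and 8.67 kb from the other end. The strand of Ppp1r15b was not used here, so this end is not named as the start. No other protein-coding gene lay within 10 kb of Ppp1r15b, and Ppp1r15b was the nearest protein-coding gene of the summit.

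In height the Ppp1r15b peak stood far above the median of the list. 210 fragments were stacked at its summit (182.6 to 240.4), with a fold enrichment of 16.7, a -log10 p of 180.2 and a -log10 q of 174.3. It ranked 16th of 7873 peaks by fragments, 17th by -log10 p and by -log10 q, and 42nd by fold enrichment. Its width of 957 bp, against a median of 207 bp, ranked 28th. The recovered local background was 11.7 fragments, 136.5 times the smallest background of the list (0.0855). The fold enrichment is relative to this local value. Whether IgG or the ATF4 reads themselves set this background is not given in the sources used here. The nearest peaks on either side of the gene, 28.6 and 48.3 kb away, had backgrounds of 0.276 and 0.251 fragments. Among the 1527 peaks with a summit within 1 kb of the end of a protein-coding gene, Ppp1r15b ranked 1st by fragments and by -log10 p, 17th by fold enrichment and 18th by width. The gene-end peak next below it by -log10 p lay at Wls and had 115 fragments (94.9 to 138.0), an interval that does not overlap that of Ppp1r15b. The library-wide order thus depended on the measure, since the fold enrichment of the Wls peak was higher (31.0).

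**Figure D2:**
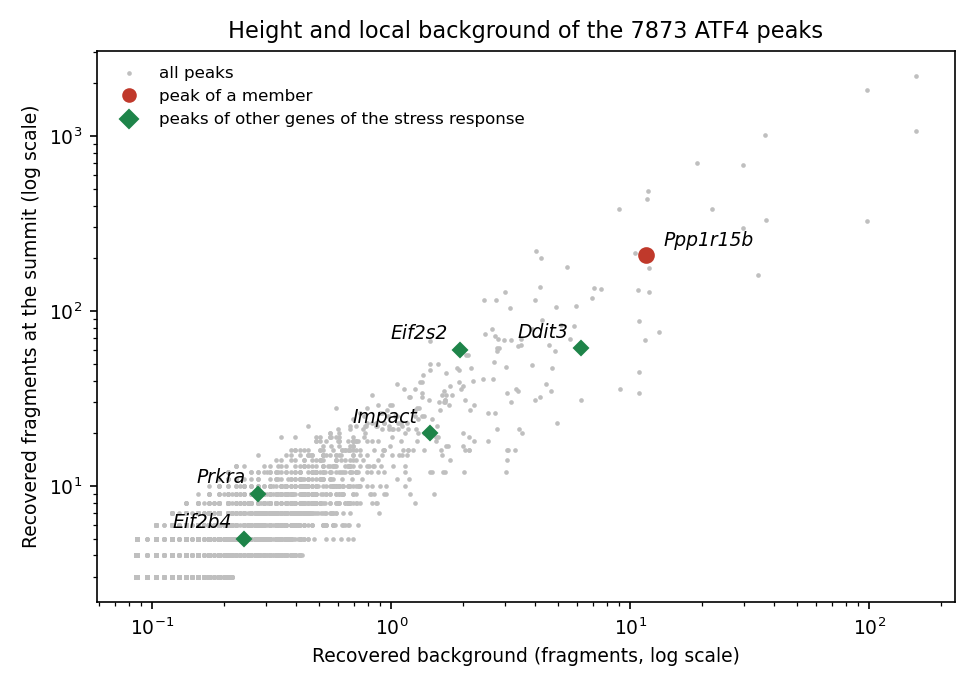
Recovered fragments at the summit (vertical, log scale) against the recovered background (horizontal, log scale) for all 7873 peaks in grey. The red point is the peak of Ppp1r15b, at 210 fragments over a background of 11.7, and the green diamonds are the highest peaks of Eif2s2, Ddit3, Impact, Prkra and Eif2b4, which have 5 to 61 fragments.

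Ppp1r15a, at chr7:45522917-45526268, had no called peak in its window. The nearest peak, at chr7:45538256-45538551, began 11.99 kb from the upper-coordinate end of the gene, which is its start on the minus strand, and so lay just outside the 10 kb limit. It had 6 fragments (2.20 to 13.1), a fold enrichment of 5.01 and a -log10 q of 3.26, and ranked 3363rd by -log10 p. A further peak 12.5 kb away had 7 fragments (2.81 to 14.4), a fold enrichment of 5.73 and a -log10 q of 4.24. Both summits lay inside Plekha4, whose gene body begins 62 bp from Ppp1r15a and whose promoters are on the opposite strand. Neither interval overlaps that of the Ppp1r15b peak. With the window at 20 kb, both peaks counted for Ppp1r15a. The body of Tulp2 overlaps Ppp1r15a and had no peak within 10 kb.

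The kinase genes are longer, from 32.1 kb for Eif2ak2 to 86.7 kb for Eif2ak4, and no called peak lay in any of them or within 20 kb. Eif2ak3, which encodes PERK, was the kinase gene nearest to a peak. Its gene lies at chr6:70844484-70905241, and the peak at chr6:70820196-70820362 was 24.1 kb before its start. That peak had 4 fragments (1.09 to 10.2), a fold enrichment of 4.39 and a -log10 q of 3.05, at rank 3452 by -log10 p. Eif2ak3 was the nearest protein-coding gene of this summit. On the other side of Eif2ak3 the nearest peak was 547.3 kb away.

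Eif2ak1, at chr5:143817792-143902717, had its nearest peak 47.1 kb beyond its 3′ end. This peak, at chr5:143949831-143950140, had 3 fragments (0.619 to 8.77), a fold enrichment of 3.36 and a -log10 q of 1.54, and its summit lay inside Pms2. The Eif2ak1 gene overlaps Aimp2, which encodes a scaffold protein of the multi-synthetase complex, and Aimp2 had no called peak within 10 kb either. Eif2ak4, at chr2:118388583-118475234, had its nearest peak 79.2 kb beyond its 3′ end, with 5 fragments (1.62 to 11.7) and a fold enrichment of 4.73. Bmf was the nearest protein-coding gene of that summit. A taller peak, with 14 fragments (7.65 to 23.5) and a fold enrichment of 11.3, lay 170.0 kb before Eif2ak4, inside Fsip1. Eif2ak2, at chr17:78850504-78882572, was the farthest from a peak, at 108.1 kb. Its nearest peak had 5 fragments (1.62 to 11.7) and a fold enrichment of 5.44, and Strn was the nearest protein-coding gene of the summit.

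**Figure D3:**
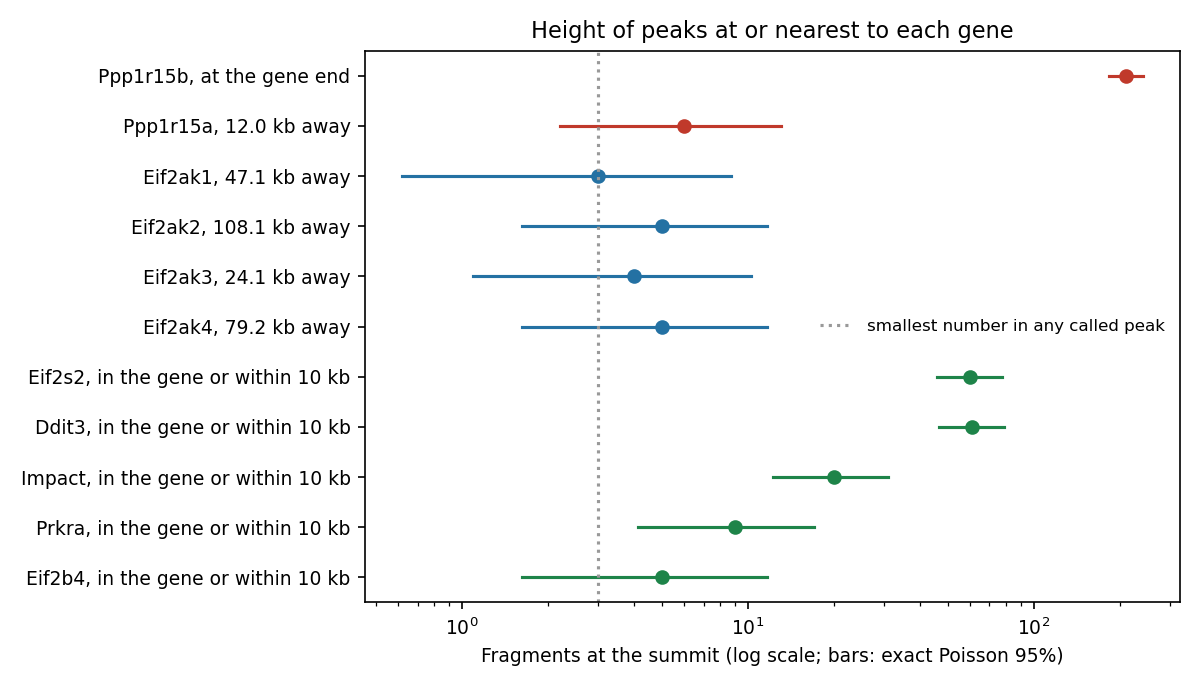
Recovered fragments at the summit (horizontal, log scale) with exact Poisson 95% intervals, for the Ppp1r15b peak, for the nearest peak of each other member with its distance from the gene, and for the highest peak of other genes of the stress response. The interval of Ppp1r15b lies above all others, and those of the nearest peaks of the other 5 members overlap each other and lie below those of Eif2s2 and Ddit3.

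The distances from gene to nearest peak were therefore 0 kb for Ppp1r15b, 11.99 kb for Ppp1r15a, 24.1 kb for Eif2ak3, 47.1 kb for Eif2ak1, 79.2 kb for Eif2ak4 and 108.1 kb for Eif2ak2. The median over all protein-coding genes was 61.6 kb. The share of protein-coding genes that lay nearer to a peak was 26.1% for Ppp1r15a, 33.6% for Eif2ak3, 44.3% for Eif2ak1, 56.0% for Eif2ak4 and 63.6% for Eif2ak2. A peak at 0 kb, as at Ppp1r15b, was shared by 15.6% of all protein-coding genes. Both phosphatase genes were nearer to a peak than any kinase gene, an order of 2 and 4 genes that was not tested. For Ppp1r15a it rests on a peak of 6 fragments with its summit inside Plekha4. The distances of the kinase genes lay on both sides of the median. The nearest peaks of the 5 genes without a peak of their own had 3 to 6 fragments, numbers whose intervals overlap, so they cannot be ranked by height at this depth.

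**Figure D4:**
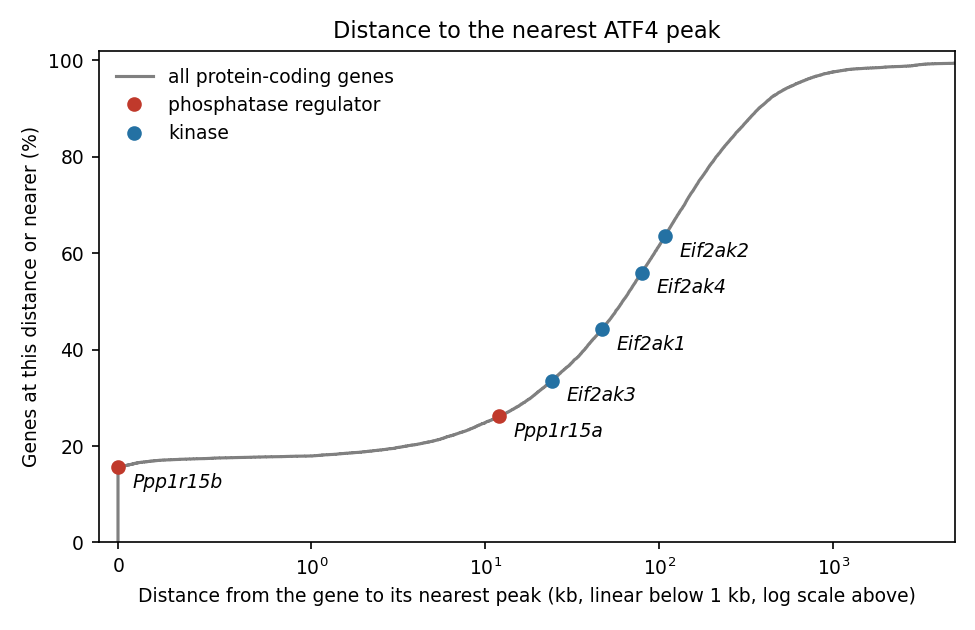
Share of protein-coding genes (vertical, percent) with a called peak at a given distance or nearer (horizontal, kb, linear below 1 kb and log scale above). The grey line is all 21887 protein-coding genes, red points the phosphatase subunits and blue points the kinases. Ppp1r15b sits at 0 kb and the other 5 genes between 11.99 and 108.1 kb.

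A missing peak does not show that signal was absent, and the total depth of the library is unknown here. A stack of 3 fragments was called only where the recovered background was at most 0.216 fragments. A lower stack, or 3 fragments over a higher background, would thus not be in this list. The background at the kinase genes and at Ppp1r15a is not known here. For these 5 genes the data show that no stack passed the threshold of the peak caller.

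The promoter windows were searched on both strands for TGATGNAA, the core of the C/EBP-ATF response element, in which N is any base. None of the windows of the 5 matched genes (6 windows, since Eif2ak4 has 2) held it, against 3.97% of all 32851 windows. The shorter TGATG, which is part of TGATGNAA and occurs in 39.3% of all windows, was found at Eif2ak1, 244 to 240 bases before the start, and on the opposite strand at Eif2ak4, 50 to 46 bases before the start. Ppp1r15a held TGACGTCA, the palindromic cAMP response element that bZIP factors of the CREB and ATF family are known to bind, 12 to 5 bases before the start; 1.79% of all windows hold it. Of the 96 windows overlapped by a called peak of at least 20 fragments, 25 (26.0%) held TGATGNAA and 0 held TGACGTCA. These matches describe the letters of the windows only. The windows of the 5 genes had a GC content of 54.7% to 67.3%, against a median of 52.7% over all windows.

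The other genes of the eIF2 pathway were taken from hand-written lists. Of the 12 genes for eIF2, its exchange factor eIF2B and the PP1 catalytic subunits, 2 (16.7%) had a peak in the window, against 24.8% of all protein-coding genes. Both had a summit within 1 kb of an end, where 8.13% of all genes had one. Eif2s2, which encodes the beta subunit of eIF2, had the higher of them, at chr2:154892337-154892959, with 60 fragments (45.8 to 77.2), a fold enrichment of 20.8 and rank 41 by -log10 p. Its summit was 131 bp inside the gene. This peak was lower than that of Ppp1r15b by fragments and higher by fold enrichment. Eif2b4, which encodes the delta subunit of eIF2B, had a peak of 5 fragments (1.62 to 11.7). Eif2s1, which encodes the subunit that the kinases phosphorylate, had none, and neither did Ppp1ca, Ppp1cb and Ppp1cc, the PP1 catalytic subunits.

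Of 10 genes whose products act on the kinases, 2 had a peak. Impact, which competes with GCN2 for its activator GCN1, had a peak deep inside the gene, 19.0 kb from the nearer end, with 20 fragments (12.2 to 30.9) and a width of 1131 bp. Prkra, which encodes the PKR activator PACT, had a peak of 9 fragments (4.12 to 17.1) with its summit 26 bp outside the gene end. In both lists together 4 of 22 genes (18.2%) had a peak within 10 kb, below the 24.8% of all protein-coding genes. The order turned for other peaks: 3 of the 22 (13.6%) had a summit within 1 kb of an end, against 8.13% of all genes, and 3 of the 22 had a peak with a -log10 q of at least 5 within 10 kb, against 6.25%. These are counts of 3 or 4 genes, and no test of them was made. Hspa5, Dnajc3, Gcn1 and Oma1 were among the genes without a peak.

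Next to the kinases in the unfolded protein response, Ern1 and Atf6 encode the other sensors and Atf4 the factor itself. None of these 3 genes had a called peak within 10 kb. With Hspa5 and Ddit3, 1 of 5 genes (20.0%) had one, against 24.8% of all protein-coding genes. Ddit3, which encodes CHOP, a stress-induced transcription factor known to raise Ppp1r15a, had a peak at chr10:127290205-127291188 with 61 fragments (46.7 to 78.4), a fold enrichment of 8.60 and a -log10 q of 33.8. Its summit was 232 bp outside Ddit3 and inside the neighbouring gene Mbd6, which overlaps Ddit3. The interval of this peak lies below that of Ppp1r15b.

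Ppp1r15b was also set beside the other regulatory subunits of PP1. Of 39 further genes with a symbol beginning in Ppp1r, 7 (17.9%) had a peak within 10 kb, against 24.8% of all protein-coding genes, and 4 (10.3%) had a summit within 1 kb of an end, against 8.13%. The highest were those of Ppp1r9a, which encodes the actin-binding protein neurabin, with 22 fragments (13.8 to 33.3) and a summit 21.1 kb from the nearer end, and of Ppp1r10, which encodes the nuclear subunit PNUTS, with 15 fragments (8.40 to 24.7). Ppp1r16b, Ppp1r35, Ppp1r8, Ppp1r11 and Ppp1r26 had 3 to 6 fragments at their highest peak. None of the 7 intervals reaches that of Ppp1r15b.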

How the data were processed

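CUT&Tag libraries were made for ATF4 and IgG, 1 each, and only the ATF4 peak list was analysed here. The submitters' processing notes name FastQC, BWA, MACS2 2.1.2, deepTools and the build mm10, without roles or thresholds; whether IgG served as the control in peak calling is not given in the sources used here. Per the deposited peak list, the authors' values for each peak are a fold enrichment (ratio), the −log10 of the p-value and the −log10 of the q-value, and a display score equal to the -log10 q multiplied by 10, without decimals, in all 7873 peaks.

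From these values the fragments k and the background at each summit were solved, taking the fold as (k + 1) divided by (background + 1) and the p-value as the Poisson probability of more than k fragments, accepted within 0.001 on the -log10 scale. The code was tested on 1945 simulated peaks made with the same formulas and found 100% of the numbers again, which checks the arithmetic and not whether the authors' values follow these formulas. Had the authors called peaks from unpaired reads, these numbers would count reads. The total depth of the library is unknown here, so the number of peaks and their fragments set the precision.

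Peaks were joined to RefSeq genes of GRCm38.p6 by any overlap with the gene extended by 10 kb. Ranks count the peaks with a larger value. The members and gene lists were chosen with earlier results of these data known. Named genes are the members, list genes with a peak (values for the highest), the nearest genes of the members' peaks, and Atf4, Ddit3, Ern1, Atf6 and Hspa5; Wls, Aimp2 and Tulp2 and the list genes named without a peak were chosen after the values were seen, as were the motif TGACGTCA and the windows under peaks of at least 20 fragments. No test between groups was made. Promoter windows came from RefSeq, in which 17492 of 21887 protein-coding genes matched. Computations ran in Python 3.11.15 with scipy 1.17.1, numpy 2.4.6 and pandas 2.3.3, and figures were drawn with matplotlib 3.10.9.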

Additional observations from a re-analysis of the deposited data

How the results depend on the processing

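The result that 1 of 6 members had a peak was unchanged with the window at 0 or 3 kb, with a -log10 q of at least 5, with at least 6 fragments, with the summit in place of overlap and with the nearest protein-coding gene only. With a window of 20 kb, 2 of the 6 members had a peak, both of them phosphatase subunits (2 of 2), and the number of peaks was 3, since the peaks 11.99 and 12.5 kb from Ppp1r15a then counted; 31.2% of all protein-coding genes had a peak in that window. The kinases had 0 of 4 under all 7 alternatives, and the other genes of the pathway 3 to 6 of 22 against 4. The share of all protein-coding genes with a peak was 15.6% with peaks inside the gene only, 6.25% with a -log10 q of at least 5 and 8.38% with at least 6 fragments, against 24.8%, because fewer peaks or less sequence then count. Measured from start sites only, 0 of the 5 members with a promoter window had a summit within 1 kb; Ppp1r15b, the gene with the peak, has no window and leaves the count by construction. In the promoter search, 2 of the 5 genes held TGATG and 1 held TGACGTCA, a motif chosen after the data were seen, against 0 for TGATGNAA and for TGATGCAA. With 1 library, no replicate could be left out. Called peaks start at 3 fragments, so signal below that height cannot be seen at any gene.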
